A study of Mus musculus with 6 samples.

Results

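The 10 genes described here are characteristic of the endothelial cells that line the vessels of the brain: Pecam1, Flt1, Kdr, Tek, Tie1, Cldn5, Nos3, Eng, Vwf and Slc2a1. They were represented by 13 of the 12422 probe sets tested, chosen as every probe set whose only annotated gene symbol was one of these names (the names were fixed with earlier results of these data known, and no measured value enters the rule). Flt1, Tie1 and Vwf had 2 probe sets each and the other genes 1 each. The values came from Affymetrix Murine Genome U74Av2 arrays of whole cerebellum at postnatal day 11, 1 array per mouse. The L1KO group held 3 mice that the labels give as males carrying the L1CAM knockout on their X chromosome (-/Y), on the congenic 129S2/SvPasCrlf background. The wild type group held 3 siblings of the same strain and age, whose sex the labels do not give. L1cam encodes a cell adhesion molecule of growing axons, and the nature of the knockout allele is not given in the sources used here. The study set the 2 genotypes side by side to see how cerebellar transcripts depend on L1cam.

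Brain endothelial cells form a barrier between blood and neural tissue. Their tight junctions, built largely on claudin-5, close the gaps between cells, and glucose crosses them through the transporter GLUT1, the product of Slc2a1. VEGF, signalling through the receptor kinases KDR and FLT1, drives vessel growth, and angiopoietins acting on TEK, modulated by TIE1, stabilise the vessels formed. L1 itself has been described in the endothelium of tumour vessels. In the early postnatal weeks the rodent cerebellum grows rapidly, and its capillary bed expands with it.

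No probe set of the 10 genes was called different between L1KO and wild type cerebellum, though at Nos3 the groups did not overlap. In limma across all probe sets, 0 of the 13 passed an adjusted p of 0.05, with adjusted p-values between 0.922 and 0.992, and the share called among all 12422 probe sets was also 0%. At an unadjusted p under 0.05 there were likewise 0 of 13, where 5.08% of all probe sets lay. Values are RMA log2 values, so a difference of 1 is a doubling of signal. The differences ran from -0.14 for Nos3 to 0.07 for Slc2a1. The 95% intervals reached no lower than -0.28, which is 1.214-fold lower in L1KO, and no higher than 0.26, which is 1.198-fold higher. A change in either direction larger than these bounds would lie outside every interval.

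**Figure D1:**
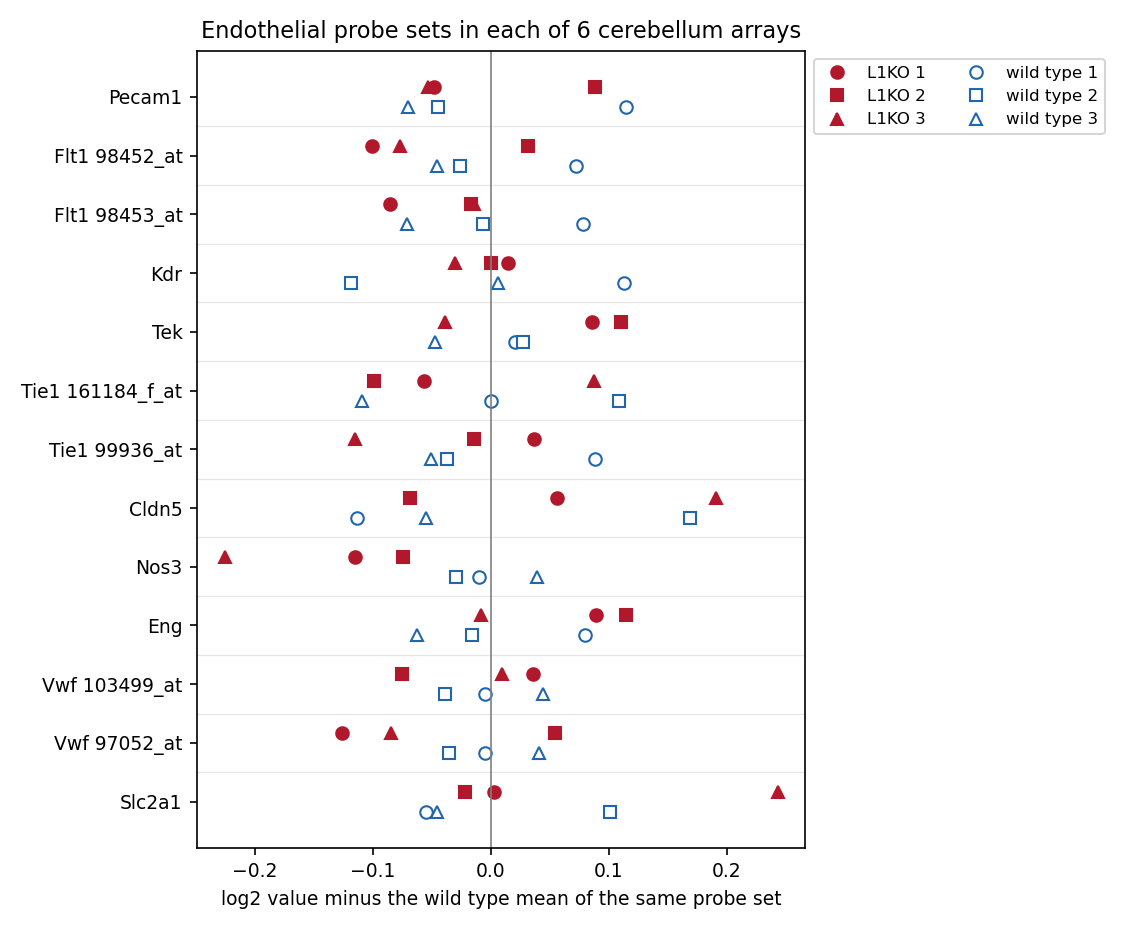
Signal of each of the 13 endothelial probe sets in each array, as the log2 value minus the wild type mean of the same probe set; filled red symbols are the 3 L1KO arrays and open blue symbols the 3 wild type arrays. The groups are interleaved in every row except Nos3, where the 3 L1KO arrays lie below the 3 wild type arrays.

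The arrays could be checked at the targeted gene and at tissue markers. L1cam read 8.25, 8.01 and 7.91 in the L1KO arrays, against 8.79, 8.48 and 8.73 in the wild type arrays. The groups did not overlap, and the difference was -0.60 (SE 0.10), with a limma adjusted p of 0.841. No probe set had a smaller adjusted p, so the targeted gene did not pass 0.05 either. A probe set that did not pass can therefore still differ between the genotypes. The exact 2-sided permutation p was 0.1, the smallest possible with 3 arrays against 3. Markers of cerebellar neurons and their precursors (Pcp2, Calb1, Gabra6, Zic1 and En2) lay between percentiles 96.7 and 99.7 of mean level. Of further markers of endothelium, Cdh5, Cd34 and Icam2 lay between percentiles 35.7 and 43.7 at their brightest probe sets. A bulk tissue array cannot assign a transcript to a cell, and in such samples fewer endothelial cells and less RNA per endothelial cell cannot be told apart. Pecam1 is also carried by platelets and leukocytes, Vwf by platelets, and Slc2a1, at a lower level, by astrocytes. The array called L1KO 1 stood apart at the Gapdh controls, whose 3' minus 5' signal bears on RNA quality, at 0.67, against 0.04 and 0.13 in the other L1KO arrays and -0.05 to 0.12 in wild type. Of Y-linked genes, Eif2s3y read 7.11 in this array and 8.59 or more in each of the rest, and Uty read 6.67 in it and 7.32 or more elsewhere. It was close to the others at Kdm5d, which is Y-linked too, and at Xist, so its sex label could not be settled. Without it 0 of the 13 probe sets passed in limma, and Nos3 differed by -0.15.

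L1KO 3 and wild type 1 stood apart at some genes of the choroid plexus, the secretory tissue of the ventricles next to the cerebellum. Ttr, its main secreted product, read 12.56, 12.43 and 10.20 in L1KO and 9.71, 12.55 and 12.13 in wild type. Kl, also a choroid plexus gene, read 8.15, 8.26 and 7.53 in L1KO and 7.60, 8.14 and 8.26 in wild type. Each genotype thus held 1 array low in both genes. Of the 8 choroid plexus genes measured, 3 (Ttr, Kl and Slc4a5) had their lowest and second lowest values in these arrays. Folr1, Aqp1 and Cldn2 were also lowest in L1KO 3, but in wild type 1 they were above the other wild type arrays. The identifier of that Folr1 probe set marks possible cross-hybridization. Cldn3 was highest in wild type 1. Cldn1, at a dim probe set (percentile 4.96), was highest in L1KO 3, and in wild type 1 it was below the other wild type arrays. The mean deviation of the list ran from -0.33 to 0.19 in L1KO and from -0.28 to 0.12 in wild type. With both of these arrays left out, a setting added after seeing the data, 0 of the 13 probe sets passed in limma and their differences ran from -0.10 to 0.14.

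Among the VEGF receptors, Kdr, the main signalling receptor, read 9.35, 9.33 and 9.30 in L1KO and 9.45, 9.21 and 9.34 in wild type. All 3 L1KO values lay inside the wild type range, and the difference was -0.005 (95% interval -0.16 to 0.15). Flt1, which binds VEGF tightly and limits its access to KDR, was read by 2 probe sets. The brighter one read 9.91, 9.98 and 9.98 in L1KO and 10.07, 9.99 and 9.92 in wild type, a difference of -0.04 (SE 0.06). The dimmer one read 7.56, 7.70 and 7.59 in L1KO, against 7.74, 7.64 and 7.62 in wild type, a difference of -0.05 (SE 0.07). Both Flt1 probe sets thus gave differences of similar size, each smaller than its standard error, with wild type 1 the highest array at both.

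The angiopoietin receptor Tek read 6.87, 6.90 and 6.75 in L1KO and 6.80, 6.81 and 6.74 in wild type. Its difference was 0.05 (95% interval -0.09 to 0.20), and the groups overlapped, with the third array the lowest of each. The Tek probe set was among the dimmer ones, at percentile 14.1 of mean level. Tie1, its partner receptor, read 8.30, 8.25 and 8.15 in L1KO and 8.35, 8.23 and 8.21 in wild type at its brighter probe set. The difference there was -0.03 (SE 0.07), and -0.02 (SE 0.08) at a dimmer probe set of percentile 20.4 whose identifier marks possible cross-hybridization. The Tie1 probe sets ordered the arrays differently: L1KO 3 was the lowest of the 6 at the first, with 8.15, and the second highest at the other, with 7.37. Eng, or endoglin, a co-receptor for TGF-beta family ligands on endothelium, read 11.46, 11.49 and 11.37 in L1KO and 11.45, 11.36 and 11.31 in wild type. L1KO 1 and 2 stood above every wild type array and the third fell inside their range, with a difference of 0.06 (95% interval -0.08 to 0.21).

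Nos3, the endothelial nitric oxide synthase that relaxes vessel walls, showed the largest difference of the 13. It read 8.71, 8.75 and 8.60 in L1KO, against 8.82, 8.80 and 8.87 in wild type. All 3 L1KO values were below all 3 wild type values, though the highest L1KO and the lowest wild type array were only 0.05 apart. The mean was 8.69 ± 0.08 in L1KO and 8.83 ± 0.04 in wild type (SD, n = 3 each). The difference was -0.14 (SE 0.06, 95% interval -0.28 to 0.003), with an unadjusted p of 0.0544 and an adjusted p of 0.922 in limma, and an exact 2-sided permutation p of 0.1. It was the 1 probe set of 13, or 7.69%, whose groups did not overlap. Among all probe sets 10.4% did not overlap in either direction, 6.63% with L1KO lower and 3.76% with L1KO higher, so this share was near the background. A larger negative difference than that of Nos3 was seen at 754 probe sets, or 6.07% of those tested.

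The barrier genes Cldn5 and Slc2a1 had the widest spread among mice. Cldn5 read 10.95, 10.83 and 11.09 in L1KO and 10.78, 11.07 and 10.84 in wild type. Slc2a1 read 9.38, 9.36 and 9.62 in L1KO and 9.33, 9.48 and 9.33 in wild type. For both genes L1KO 3 was the highest array, wild type 2 the next and wild type 1 the lowest, so each genotype held a high array. The differences were 0.06 for Cldn5 (95% interval -0.14 to 0.26) and 0.07 for Slc2a1 (95% interval -0.11 to 0.26). Without L1KO 3 they were -0.006 and -0.010, so that array set the sign of both, and without wild type 1 they were 0.003 and 0.047. Without both of these arrays, those low in Ttr, they were -0.063 and -0.037. The part of choroid plexus RNA in the Cldn5 and Slc2a1 values was not tested further.

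Pecam1, an adhesion molecule at endothelial cell borders, read 9.999, 10.136 and 9.993 in L1KO, against 10.162, 10.003 and 9.977 in wild type. A single array of each genotype, L1KO 2 and wild type 1, stood above the others, and the difference was -0.005 (95% interval -0.17 to 0.16). Vwf, the clotting protein that endothelial cells store and release, read 9.09, 8.98 and 9.06 in L1KO and 9.05, 9.01 and 9.10 in wild type at its first, brighter probe set. The other read 8.80, 8.98 and 8.84 in L1KO and 8.92, 8.89 and 8.97 in wild type. The Vwf differences were -0.01 (SE 0.06) and -0.05 (SE 0.07), and the groups overlapped at both. The arrays were ordered differently by these probe sets: L1KO 2 was the lowest at the first and the highest at the second.

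**Figure D2:**
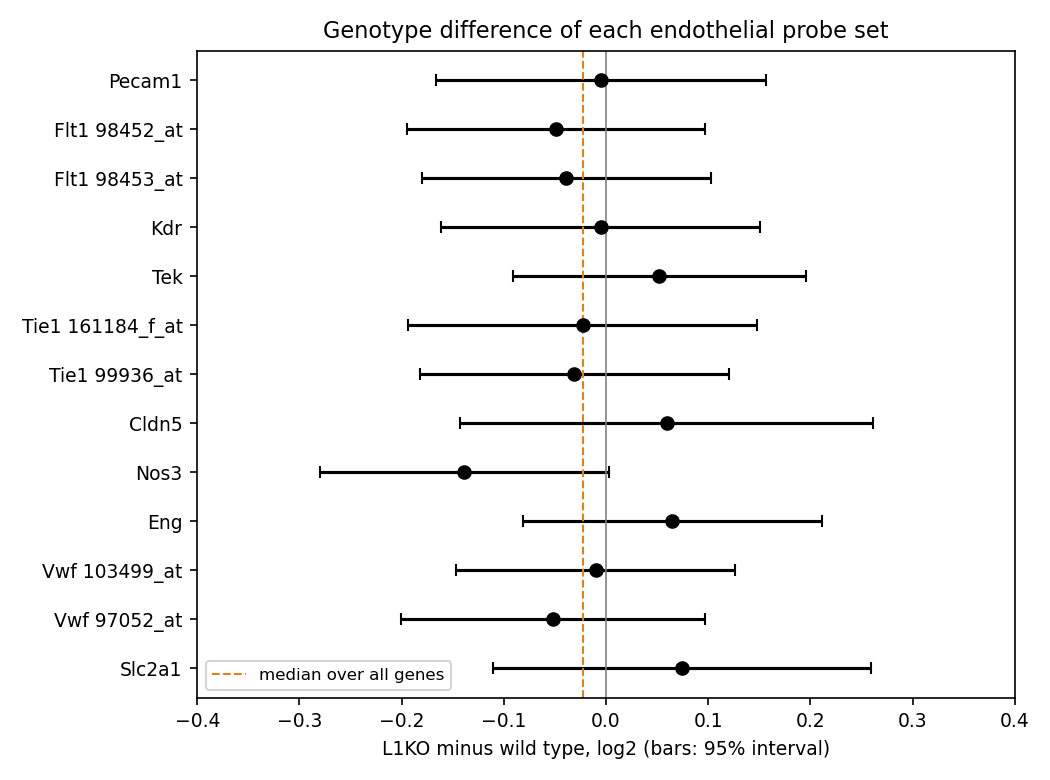
Difference between the L1KO and wild type means of each endothelial probe set in log2 units, with the 95% interval from limma (3 arrays each). Every interval spans 0, and the dashed line marks the median difference over all genes, -0.022.

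When each gene was read by its brightest probe set, 4 of the 10 genes had a higher and 6 a lower L1KO mean. Their median difference was -0.005, beside a median of -0.022 over all 8251 genes, of which 38.3% had a higher L1KO mean. The direction of the near-zero members depended on scaling. After each array was centred on its median, Kdr, Pecam1, the first Vwf probe set and both Tie1 probe sets read between 0.001 and 0.027, and the median over all probe sets was 0.009 in place of -0.023. The median of the 10 genes was then 0.027. The median absolute difference of the 13 probe sets was 0.049, beside 0.054 over all probe sets. Their median range over the 6 arrays was 0.18, beside 0.23 for all probe sets.

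**Figure D3:**
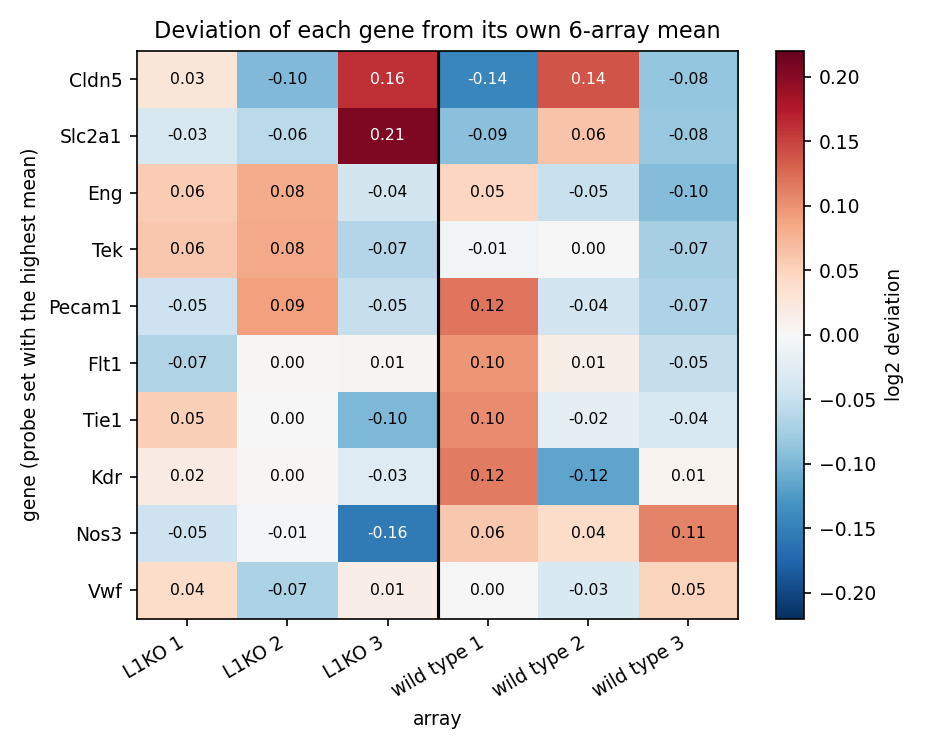
Deviation of each of the 10 genes from its own mean over 6 arrays (log2; red above, blue below; L1KO arrays left of the line). Cldn5 and Slc2a1 share high values in L1KO 3 and wild type 2, while Pecam1, Flt1, Tie1 and Kdr are highest in wild type 1.

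The 10 genes had no single pattern across mice. Of their 45 pairs, 22 correlated positively over the 6 arrays, with a median Pearson r of -0.02. The closest pair was Cldn5 and Slc2a1, with r = 0.90 (exact permutation p = 0.00278, adjusted p = 0.125 over the 45 pairs) and Spearman rho = 0.94 (exact permutation p = 0.0167, adjusted p = 0.640). Without the 2 arrays farthest from the Cldn5 median, L1KO 3 and wild type 2, r was 0.89. Of 10820 probe sets of other genes, 129, or 1.19%, followed Cldn5 at least as closely. Tek and Eng followed next, with r = 0.87 (exact permutation p = 0.0375, adjusted p = 0.562) and rho = 0.83 (exact permutation p = 0.0583, adjusted p = 0.640), and r was 0.67 without L1KO 2 and wild type 3. For Kdr and Cldn5 r was -0.78 (exact permutation p = 0.0319, adjusted p = 0.562). Their rho was -0.71 (exact permutation p = 0.136, adjusted p = 0.640). Without wild type 1 and wild type 2 their r was -0.71. Nos3 and Slc2a1 had the lowest r, -0.785 (exact permutation p = 0.0583, adjusted p = 0.615). Without L1KO 3 and wild type 3 the r of Nos3 and Slc2a1 was 0.05. No pair passed after adjustment, and 3 had an unadjusted exact permutation p under 0.05 for r.

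The mean deviation of the 10 genes was between -0.006 and 0.006 in the L1KO arrays and between -0.033 and 0.030 in the wild type arrays, so wild type held both the highest and the lowest array. The 5 probe sets that followed this mean most closely over the 6 arrays, among 10820 of other genes, were those of Lyz2, a lysozyme of macrophages (r = 0.99), Mmp14, a membrane-bound matrix protease (r = 0.98), Psmb10, a subunit of the immunoproteasome (r = 0.97), Arid3a, a DNA-binding protein (r = 0.96), and Cyb5r1, a cytochrome b5 reductase (r = 0.96). The Lyz2 probe set was dim, at percentile 9.0 of mean level. A brighter Lyz2 probe set, at percentile 16.6, was highest in L1KO 1, whereas the mean of the 10 genes was highest in wild type 1. The Cyb5r1 probe set differed by 0.03 between L1KO and wild type, and other Cyb5r1 probe sets by -0.10 and -0.09. With 6 arrays and so many probe sets, these are given as a description only.

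The promoters of Cldn5, Slc2a1 and Kdr are shown because the first pair had the highest r across mice and Kdr and Cldn5 one of the lowest. Each is the stretch of 250 bases before the annotated start, 5′ to 3′ on the strand of the gene, from RefSeq on GRCm38.p6, and capitals mark matches to the motifs searched.
Cldn5 promoter, chr16:18776597-18776846 (plus strand): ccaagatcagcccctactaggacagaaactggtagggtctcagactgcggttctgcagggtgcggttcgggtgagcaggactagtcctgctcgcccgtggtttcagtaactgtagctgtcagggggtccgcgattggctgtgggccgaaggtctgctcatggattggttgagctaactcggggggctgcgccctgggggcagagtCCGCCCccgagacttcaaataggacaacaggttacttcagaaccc
Slc2a1 promoter, chr4:119108495-119108744 (plus strand): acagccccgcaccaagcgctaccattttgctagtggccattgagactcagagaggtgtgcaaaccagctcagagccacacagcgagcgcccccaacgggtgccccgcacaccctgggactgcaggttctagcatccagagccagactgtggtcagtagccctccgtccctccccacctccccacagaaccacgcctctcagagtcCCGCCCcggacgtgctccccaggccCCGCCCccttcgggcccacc
Kdr promoter, chr5:75978456-75978705 (minus strand): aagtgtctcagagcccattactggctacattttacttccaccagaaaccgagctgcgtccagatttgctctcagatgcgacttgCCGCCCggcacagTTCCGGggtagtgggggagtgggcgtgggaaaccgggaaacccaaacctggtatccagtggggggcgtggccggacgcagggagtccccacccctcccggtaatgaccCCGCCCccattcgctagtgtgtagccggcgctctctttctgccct
The letters searched, on both strands, were chosen for factor families active in endothelium or at many promoters. They were CAGGAA for ETS factors, with CCGGAA as another core of the same family. For GATA factors AGATAA was searched, for AP-1 TGAGTCA, and for SP factors CCGCCC. None of these motifs overlaps another in the promoters shown. The RefSeq table held promoters of 7 of the 10 genes: Flt1, Kdr, Tek, Tie1, Cldn5, Eng and Slc2a1. CCGCCC was found in 4 of them, Flt1, Kdr, Cldn5 and Slc2a1, and in 32.7% of all 32851 windows of this length. In Cldn5, Slc2a1 and Kdr a copy began 45 bases before the start. The share of all windows with a copy at that position is not given here, so no meaning is read from it. CAGGAA was found in Tek and Tie1, both on the other strand, and in 25.7% of all windows. CCGGAA was found in Kdr alone of the 7, on the other strand 153 bases before the start, and in 12.0% of all windows. AGATAA, present in 9.99% of all windows, and TGAGTCA, present in 4.46%, were in 0 of the 7.

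Genes that act with these receptors and barrier proteins were measured in 16 further lists. Across the 222 genes of those lists that were measured, each counted once, 0 passed in limma. Of them 11 (4.95%) had an unadjusted limma p under 0.05, beside 5.08% of all probe sets. At 22 (9.91%) the groups did not overlap, beside 10.4% of all probe sets. Each gene was read by its brightest probe set, whereas the shares beside them are over all 12422, dim and repeated ones included. Of the list genes named, groups did not overlap at Flt4, Vegfc, Cd34, Insr, Lrp1, Wnt7a, Apcdd1, Lamb1, Hba-a1, Bpgm, Cx3cr1, Aqp4 and Hk2. Counts of higher and lower means in these lists depended on scaling: after median centring the medians of 6 of the 16 lists changed sign to positive (transcription factors, barrier transporters, Notch and TGF-beta, basement membrane, pericytes and choroid plexus), and the counts shifted in others. Of 14 genes of VEGF and angiopoietin signalling, 0 passed, 2 had a higher and 12 a lower L1KO mean, and the median was -0.060, beside -0.022 for all genes. After median centring these were 4 and 10, with a median of -0.028, beside 0.010 for all genes. Flt4, the VEGF receptor of lymphatic and sprouting endothelium, read 7.61, 7.76 and 7.74 in L1KO, against 7.97, 7.86 and 8.01 in wild type. These groups did not overlap (difference -0.24, SE 0.07, limma adjusted p = 0.885), but a second, dimmer Flt4 probe set differed by only -0.02. Vegfc, a ligand of FLT4, differed by -0.15 (SE 0.09), without overlap between the groups. The highest L1KO array (7.948) and the lowest wild type array (7.951) nearly met at Vegfc. Vegfa, the chief ligand of KDR and FLT1, differed by -0.04 at a dim probe set (percentile 16.96).

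Wnt ligands from neural cells induce barrier properties in brain endothelium. Of 14 genes in that pathway, 0 passed, 3 had a higher and 11 a lower L1KO mean (median -0.040), or 7 and 7 after median centring (median -0.008). Wnt7a, a ligand in this pathway, read 7.53, 7.68 and 7.42 in L1KO, against 7.76, 7.85 and 7.88 in wild type, a difference of -0.28 (SE 0.08). Apcdd1, a Wnt inhibitor that is itself induced by Wnt signalling, read 10.72, 10.48 and 10.68 in L1KO, against 10.38, 10.42 and 10.15 in wild type, a difference of 0.31 (SE 0.09). Neither gene's groups overlapped, and each had a limma adjusted p of 0.885. The receptor Fzd4 differed by 0.007 and Axin2, a general Wnt target, by -0.03.

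Of 17 barrier transporters and enzymes, 0 passed, 8 had a higher and 9 a lower L1KO mean (median -0.016). Insr, the insulin receptor, read 8.10, 8.02 and 7.85 in L1KO and 8.29, 8.21 and 8.33 in wild type, without overlap (difference -0.29, SE 0.08, limma adjusted p = 0.885). Lrp1, a scavenger and transport receptor, differed by -0.17 (SE 0.07), also without overlap. Slc7a5, the large neutral amino acid transporter, differed by 0.16 and overlapped. Of 16 junction and adhesion genes 9 had a higher and 7 a lower L1KO mean, and 0 passed (median 0.017). In that list Ly6e differed by -0.14 and Cd34 by 0.10, though their second probe sets gave -0.002 and -0.06. Cdh5, the cadherin of endothelial junctions, differed by 0.10 (95% interval -0.06 to 0.26).

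The remaining vascular lists likewise had 0 genes past the threshold. Of 23 endothelial transcription factors, 9 had a higher and 14 a lower L1KO mean (median -0.026), with Ets2 at -0.13 and Lmo2 at 0.11. Of 21 genes of Notch and TGF-beta signalling 7 were higher and 14 lower by the mean (median -0.016), with Bmpr2 at -0.15 and Smad1 at 0.14. Of 19 genes of vascular tone and haemostasis 10 were higher and 9 lower by the mean (median 0.024), with Arg1 at -0.15 and Ddah2 at 0.11. Among 17 basement membrane genes 8 were higher and 9 lower by the mean (median -0.001), and Lamb1, a laminin chain, differed by -0.25 at one probe set and -0.16 at another. Sparc, a matrix glycoprotein, differed by 0.25 in that list. Of 15 genes of pericytes and smooth muscle, the cells that wrap the endothelium, 5 were higher and 10 lower by the mean (median -0.022), with Vtn at 0.09 and Pdgfb at -0.11.

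**Figure D4:**
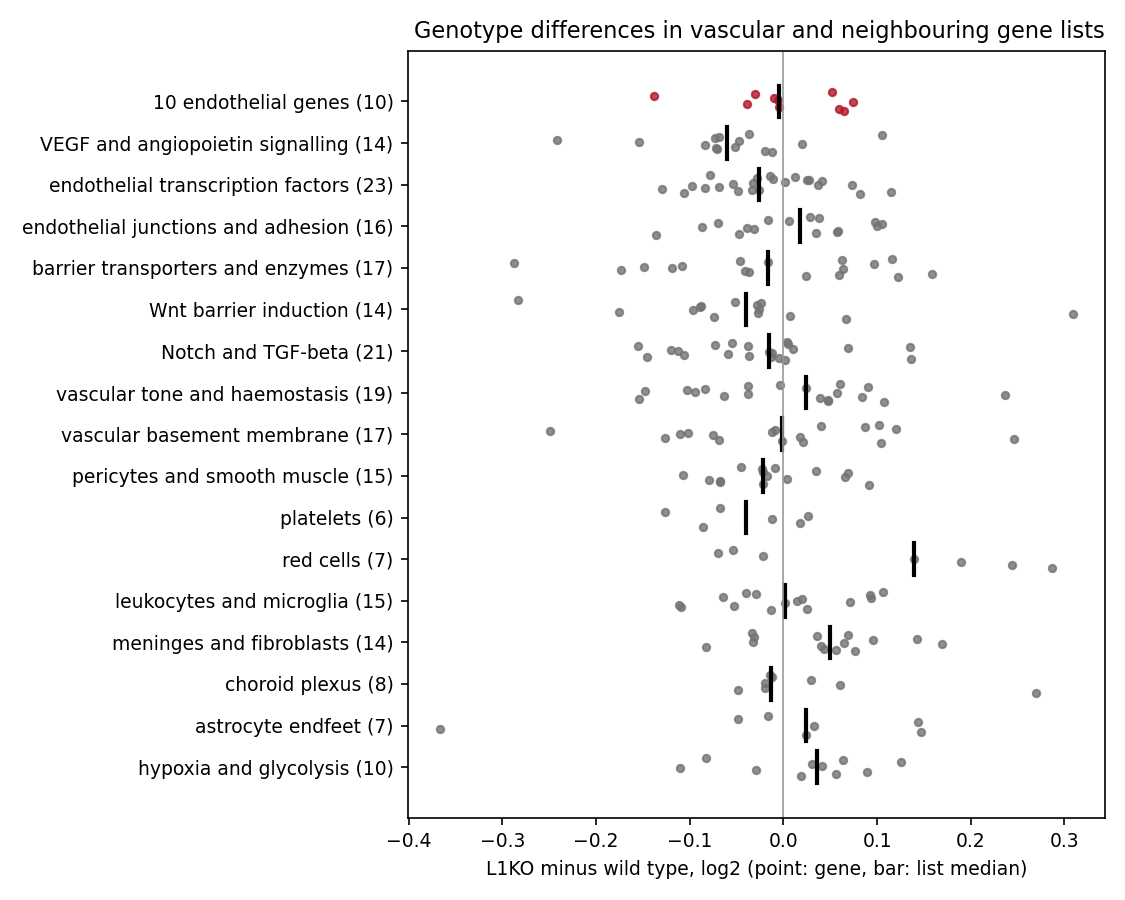
Difference between L1KO and wild type means (log2) for every measured gene of the endothelial set and of 16 lists for vascular and neighbouring cells; the number measured is in brackets, points are genes and black bars list medians. The 10 endothelial genes lie between -0.14 and 0.07, and the red cell list has the highest median, 0.14.

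Genes of blood cells and microglia did not pass either. Of 7 red cell genes 4 had a higher and 3 a lower L1KO mean, with a median of 0.14. The alpha globin gene Hba-a1 read 0.29 higher by the mean (limma adjusted p = 0.841), and Bpgm 0.19 higher, both without overlap between the groups. The mean deviation of the red cell list ran from -0.02 to 0.14 in the L1KO arrays and from -0.10 to 0.04 in the wild type arrays. Slc2a1 had a higher L1KO mean too, and any part of red cells in its value was not tested. Of 6 platelet genes 2 were higher and 4 lower by the mean (median -0.040), with Pf4 at -0.13 and Gp9 at -0.09, and their mean deviations overlapped between L1KO (-0.10 to 0.06) and wild type (-0.02 to 0.05). Of 15 genes of leukocytes and microglia 8 were higher (median 0.002), with Cx3cr1 at -0.11 and C1qb at -0.11, the last at 0.19 by another probe set.

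No gene of the lists for tissues next to the vessels passed. Of 14 genes of meninges and fibroblasts 10 had a higher L1KO mean (median 0.050), with Pdgfra at 0.17 but -0.08 and -0.01 at its other probe sets, and Col3a1 at 0.14. Of 8 choroid plexus genes 3 were higher (median -0.013), with Cldn2 at 0.06 and Folr1 at -0.05, but at 0.06 by its other probe set. Ttr and Kl, which set L1KO 3 and wild type 1 apart, differed by 0.27 (SE 0.74) and -0.02 (SE 0.20). Of 7 genes of astrocyte endfeet, which sheathe brain capillaries, 4 were higher (median 0.025). Aqp4, the water channel of those endfeet, differed by -0.37 (SE 0.11, limma adjusted p = 0.885) and by -0.24 at a second probe set, and Dtna by 0.14 and -0.09. Of 10 genes of hypoxia and glycolysis 7 were higher (median 0.036), with Hk2 at 0.13, but -0.02 at a dim second probe set, and Bnip3 at -0.11.

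**Figure D5:**
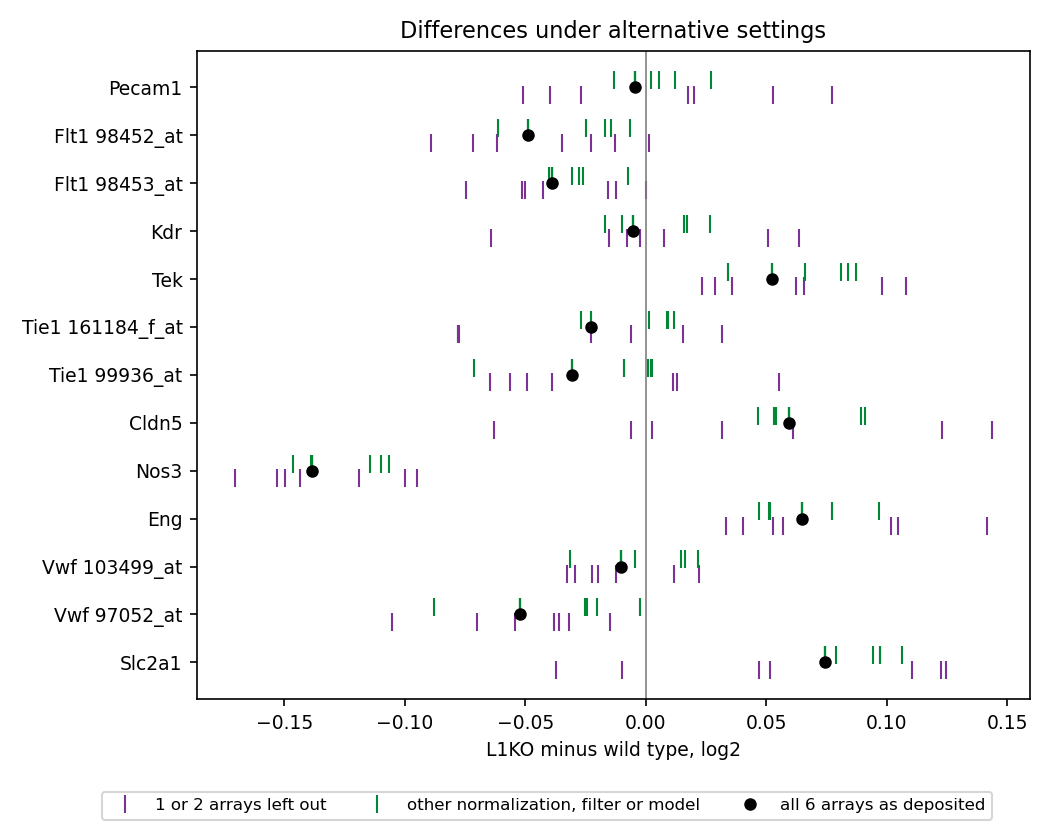
Difference between L1KO and wild type means (log2) of each endothelial probe set over all 6 arrays (black points), with 1 or 2 arrays left out (purple ticks) and under another normalization, filter or model (green ticks). Nos3 stays below 0, between -0.17 and -0.09, and Tek and Eng stay above 0, while Kdr, Pecam1, Tie1, Cldn5, Slc2a1, the brighter Vwf and the dimmer Flt1 probe set fall on both sides.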

How the data were processed

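Total RNA of 6 cerebella was hybridised to 1 array each. The deposited values are log2 expression values that the authors made with RMA, per the submitters' processing notes; its version is not given in the sources used here. RMA subtracts background, brings arrays to a common scale and condenses each probe set to 1 value, so a change in total RNA per cell cannot be read. Arrays carry no read depth, and their number limits the precision.

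Of 12488 probe sets, 66 controls were left out. The array annotation gave 1 symbol for 10833, several for 396 and none for 1193, and 10817 gene identifiers were found in RefSeq (GRCm38.p6). Each array was taken as 1 mouse, since the design text names 3 knockouts and 3 siblings. Genotype was tested with limma 3.58.1 in R 4.3.3 (lmFit and eBayes, 2-sided, Benjamini-Hochberg over 12422 probe sets), after a check on simulated data. Percentiles of mean level show how dim a probe set was and do not compare transcript amounts. Pairs of genes were tested by exact permutation in Python 3.11.15.

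The members and lists were chosen with earlier results of these data known. Named were all members, L1cam, the 2 genes of smallest unadjusted p in each other list, and the 5 probe sets most like the members' mean. Genes in lists were read by their brightest probe set. Vegfa, Fzd4, Axin2, Slc7a5, Cdh5, Ttr, Kl, Slc4a5, Aqp1, Cldn1, Cldn3 and the sex-linked genes were added after their values were seen. Replicate numbers were not used to pair the arrays in the main test. The deviations of same-numbered arrays from their group means correlated at 0.16, -0.32 and 0.17. Such deviations sum to 0 within a group of 3, so these values cannot exclude a pairing. Alternatives covered normalization, removal of the dimmest 40% of probe sets, the variance model, array weights, a replicate block, a Gapdh covariate, probe sets open to cross-hybridization, each array left out and, added after seeing the data, L1KO 3 and wild type 1 left out together. A planned comparison of receptor protein sequences was not made.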

Additional observations from a re-analysis of the deposited data

How the results depend on the processing

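The differences were recomputed under 16 alternatives, 1 of them (L1KO 3 and wild type 1 left out together) added after seeing the data, and the counts also at an adjusted p of 0.1. In none of these did an endothelial probe set pass in limma, and the smallest adjusted p of a member was 0.507. Among all probe sets the count stayed at 0 except without L1KO replicate 3, where it was 1. L1cam was lower in L1KO under each of the 15 alternatives that kept it, from -0.70 to -0.47. Nos3 ran from -0.17 to -0.09 and its unadjusted p from 0.0327 to 0.225, under 0.05 with array weights and without L1KO replicate 2. Eng ran from 0.033 to 0.141, Tek from 0.023 to 0.108, the second Vwf probe set from -0.105 to -0.002 (nearest 0 with the Gapdh covariate), and the brighter Flt1 probe set from -0.075 to -2.18e-05, the last without wild type 1. These and Nos3 kept their sign.

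Signs turned for the other 8 probe sets. With quantile normalization Vwf (first probe set) was 0.016, Kdr 0.017, Pecam1 0.0020, and Tie1 0.012 (dimmer) and 0.0021 (brighter). With median centring these were 0.022, 0.026, 0.027, 0.0089 and 0.00097, and with cyclic loess 0.015, 0.016, 0.0054, 0.0093 and 0.0025. The dimmer Tie1 probe set was 0.0014 with array weights, and Pecam1 was 0.012 with the Gapdh covariate. With 1 array left out, Pecam1 ran from -0.051 to 0.053, Kdr from -0.064 to 0.051, Vwf (first) from -0.033 to 0.022, Tie1 from -0.078 to 0.032 (dimmer) and from -0.065 to 0.013 (brighter), Cldn5 from -0.0063 to 0.144 and Slc2a1 from -0.010 to 0.125. With L1KO 3 and wild type 1 both left out, Kdr was 0.064, Cldn5 -0.063, Slc2a1 -0.037, Pecam1 0.077, the dimmer Flt1 0.0012 and the brighter Tie1 0.055. The cause was not tested. The median over the 10 genes ran from -0.028 to 0.030 with 1 array left out and from -0.007 to 0.027 otherwise, and was -0.0050 with a gene's probe sets averaged. With the replicate number as a block, the endothelial probe sets called numbered 0, those called in all 0, and Nos3 differed by -0.14 (unadjusted p 0.0943). Tek, both Tie1 and the dimmer Flt1 probe sets, and L1cam, were below the filter on mean level and have no value there.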
